A study of Mus musculus with 4 samples.

Results

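The 6 genes described here encode parts of the axoneme, the microtubule core of motile cilia and of the sperm tail, or the calcium channel of the sperm tail. They were picked by symbol from the authors' tables of genes listed as changed: Cfap61, Dnah7c, Dnah10, Dnah12, Tekt5 and Catsper2, 6 of 1132 distinct symbols. Because they had to be in the tables to be picked, their presence there and the size of their values are a description and were not tested. Total RNA was sequenced from mouse E14tg2a embryonic stem cells, an established line from strain 129/Ola, in 2 libraries of cells given an shRNA that targets Mrhl, a long non-coding RNA (sh-Mrhl) and 2 libraries of cells given a scrambled shRNA. All 4 libraries came from cells collected 48 hours after transient transfection per the protocol, although 1 tag of the labels speaks of a lentivirus. The protocol names 1 shRNA against Mrhl. Nothing in the labels says whether the libraries of a group came from separate cultures.

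In a motile axoneme, outer doublet microtubules surround a central pair. Dynein arms on each doublet walk along the neighbouring doublet, and radial spokes carry signals from the central pair to the inner arms. Tektins are filament proteins that line the inside of the doublet wall. CatSper, in the membrane of the sperm tail, lets in the calcium needed for hyperactivated swimming. Many of these genes are known to be switched on in multiciliated cells and developing sperm, in part by RFX transcription factors, which bind a promoter element called the X-box. Embryonic stem cells are not known for building motile axonemes.

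The tables gave 1 signed fold-change value per gene for sh-Mrhl against scrambled, with a minus sign for genes lower in sh-Mrhl. No value per library, read count or p-value was in them, so the depth is unknown, no value has a replicate error and no test across libraries was possible. The column headers do not say whether the values are log2 or linear folds, so they are printed as deposited. The smallest absolute value in either table was 1.5003. "Lower" and "higher" below mean that the authors listed the gene so. In bulk RNA, fewer cells expressing a gene and less RNA per cell cannot be told apart.

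The 6 genes were divided evenly, with 3 lower and 3 higher. Of 21924 annotated protein-coding symbols, 1.57% were listed as lower and 0.93% as higher; nothing is read from the members' count against these shares, since the choice required listing. The lower genes were a radial spoke gene and a pair of inner arm dynein genes. The higher genes were another inner arm dynein gene, a tektin gene and a sperm calcium channel gene.

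**Figure D1:**
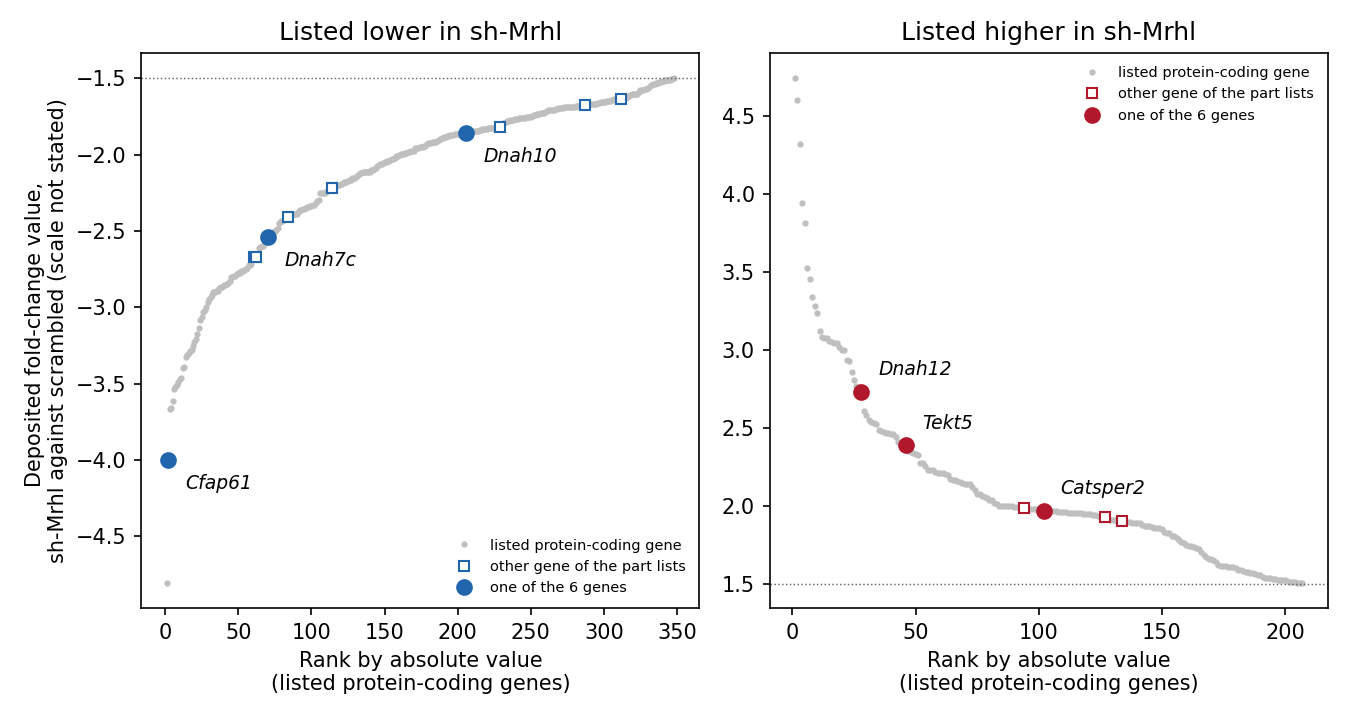
Deposited fold-change value (y axis, scale not stated) against rank by absolute value (x axis) for the 348 lower and 207 higher protein-coding symbols, each grey point being 1 symbol. Filled circles are the 6 genes, open squares the other listed genes of the axonemal and flagellar lists, and dotted lines mark an absolute value of 1.5; Cfap61 stands near the extreme at -4.00, whereas Dnah10 and Catsper2 lie on the flat parts of the curves.

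The radial spoke gene Cfap61 had the most extreme value of the 6, -4.00 in the authors' deposited table. Its protein belongs to the calmodulin- and spoke-associated complex, known from the alga Chlamydomonas to sit at the spoke base and link spokes to the dynein regulators. Among the 348 lower protein-coding symbols it ranked 2, between D130043K22Rik at -4.81 and the lysosomal transporter gene Abcb9 at -3.67 in the authors' deposited table. Among all 722 lower symbols it ranked 6. Cfap61 lies on chromosome 2 from 145934784 to 146215039 in GRCm38, the assembly also called mm10, on the plus strand. Its first 231 bases overlap the start of Crnkl1, a splicing factor gene on the opposite strand that was in neither table.

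Of the inner arm dyneins, Dnah7c was at -2.54, Dnah10 at -1.86 and Dnah12 at 2.73 in the authors' deposited tables. Dynein heavy chains are the motor subunits that hydrolyse ATP and bend the axoneme. Dnah10 encodes a heavy chain of the inner arm that carries a pair of motors, while Dnah7 and Dnah12 proteins belong to the inner arms with a single motor. The arm type and the direction did not coincide, since the single-motor genes Dnah7c and Dnah12 were listed in opposite directions. Dnah7c ranked 70 of 348 lower protein-coding symbols, next to the GABA receptor gene Gabrr1 at -2.57 and Gm4884 at -2.53 in the authors' deposited table. Dnah10 ranked 206 of 348, between Olfr398 and the retinoic acid receptor gene Rarb, at -1.86 and -1.85 in the authors' deposited table. Dnah12 ranked 28 of 207 higher protein-coding symbols, between Gm281 at 2.76 and Erich2 at 2.61 in the authors' deposited table. It was also on 2 rows of the higher table with the same value and was counted once.

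The tektin gene Tekt5 was at 2.39 in the authors' deposited table. Its product is a tektin of the sperm tail. It ranked 46 of 207, between Sntg2, encoding a syntrophin, at 2.39 and Gm14698 at 2.35. Catsper2, which encodes one of the pore-forming subunits of the CatSper channel, had the smallest value of the 3 higher genes, 1.96 in the authors' deposited table. It ranked 102 of 207, between Crisp1, encoding an epididymal sperm-coating protein, at 1.97 and Hsbp1l1 at 1.96. The median of the higher protein-coding symbols was also 1.96 and that of the lower ones -1.95, so that Catsper2 stood at the middle of its table, Dnah10 closer to zero than the middle, and the other 4 genes beyond it.

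Dnah7c has close copies, Dnah7b and Dnah7a, all on chromosome 1 and neither of the copies in the tables. In GENCODE M21, Dnah7c runs from 46425592 to 46807476 on the plus strand, and Dnah7b ends 52045 bases before it. The coding sequence of Dnah7c, 12072 bases, was identical to that of Dnah7b at 97.5% of aligned bases and to that of Dnah7a at 97.2%. Dnah7c differed from both copies at 158 coding bases, and the longest stretch shared by all 3 genes ran for 218 bases. Below is the 90-base coding stretch with the most bases particular to Dnah7c, shown because such bases set Dnah7c apart from its copies; capitals mark the 6 positions at which Dnah7c differs from both copies. It covers coding bases 472 to 561 of Dnah7c and Dnah7a and 604 to 693 of Dnah7b, counted from the start codon, from the GENCODE transcripts.

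Dnah7c: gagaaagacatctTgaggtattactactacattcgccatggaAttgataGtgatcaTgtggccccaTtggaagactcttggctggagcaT
Dnah7b: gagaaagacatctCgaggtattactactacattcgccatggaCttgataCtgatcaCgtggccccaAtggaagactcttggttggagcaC
Dnah7a: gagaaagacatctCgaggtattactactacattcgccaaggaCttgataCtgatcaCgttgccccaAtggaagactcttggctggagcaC

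Of the 12598 distinct 50-base windows in annotated Dnah7c transcripts, 5899, or 46.8%, also occurred in transcripts of another gene. Dnah7b shared 4721 of them and Dnah7a 3698. With 100-base windows the shared part was 23.9%. How the authors' counting placed reads that match several genes is not given in the sources used here, so the value of Dnah7c is uncertain as a measure of that gene alone. The other 5 genes were nearly or wholly free of such sharing. No 50-base window of Dnah12, Tekt5 or Catsper2 occurred in another gene's transcripts. The share was 0.25% for Cfap61 and 0.594% for Dnah10, where all shared windows lay in the antisense gene model Gm43777.

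Most of the 6 genes were long. Dnah7c spans 382 kb, Cfap61 280 kb, Dnah12 198 kb and Dnah10 109 kb, and each of these is longer than at least 89.9% of annotated protein-coding genes. The 3 dynein heavy chain genes have 65, 79 and 74 exons for Dnah7c, Dnah10 and Dnah12 and protein-coding transcripts of 12.2, 14.04 and 12.01 kb, longer than 99.1% to 99.5% of those of annotated protein-coding genes. Tekt5, at 37.5 kb with 7 exons, and Catsper2, at 21.2 kb with 13 exons, were nearer to the medians of the listed genes. Those medians were 25.2 kb for lower and 20.8 kb for higher protein-coding genes, against 17.4 kb for all annotated ones. The lower genes among the 6 were therefore all over 100 kb, but so was the higher gene Dnah12.

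**Figure D2:**
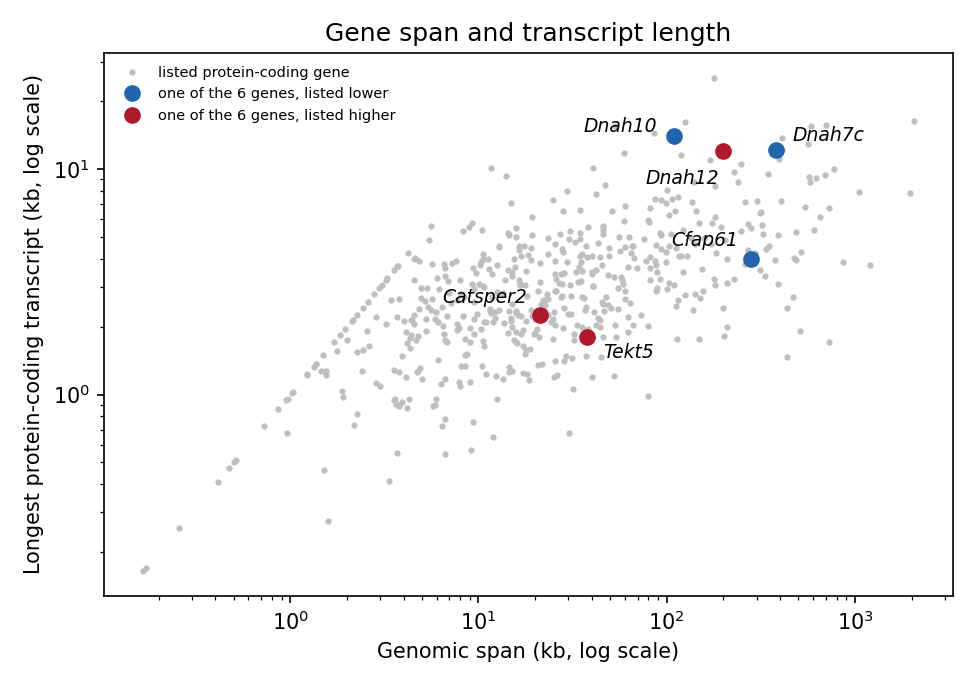
Genomic span (x axis, kb, log scale) and length of the longest protein-coding transcript (y axis, kb, log scale) of listed protein-coding genes, 1 grey point per gene, with the 6 genes in blue where lower and red where higher. The 3 dynein heavy chain genes lie at the top right, from 109 to 382 kb, and Tekt5 and Catsper2 lie within the bulk of the listed genes.

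The genes were scattered over the genome, with Cfap61 and Catsper2 on chromosome 2, Dnah7c on 1, Dnah10 on 5 from 124725085 to 124834308, Dnah12 on 14 from 26693274 to 26891703 and Tekt5 on 16 from 10357948 to 10395490. Cfap61 and Catsper2, on the same chromosome but in opposite tables, are not neighbours, as Catsper2 lies from 121392631 to 121413792. No gene overlapping any of the 6 was in the tables. Catsper2 overlaps the start of Pdia3, a protein-folding enzyme gene on the opposite strand, by 18 bases and contains the processed pseudogenes Gm14001 and Gm14000. The gene Slc39a10, encoding a zinc transporter and pointing towards Dnah7c, comes within 67 bases of its end. Whether the counting used strand is not given in the sources used here, so reads in these overlaps may not be separable.

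Listed neighbours within 500 kb did not share a direction with the genes in most cases. The processed pseudogene Gm8326, 8659 bases before Dnah7c, was higher, with 2.74 in the authors' deposited table, while Dnah7c was lower. Slc24a3, a sodium-calcium exchanger gene 292617 bases from Cfap61, was among the higher genes, with 3.06 in the authors' deposited table. Hesx1, a homeobox gene of early forebrain and pituitary development 102712 bases past Dnah12, was lower at -1.77 in the authors' deposited table, against Dnah12 among the higher genes. On its other side Crb1-ps, 317101 bases away, was higher like Dnah12, at 1.52 in the authors' deposited table. Dnah10, Tekt5 and Catsper2 had no listed neighbour within that distance.

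The promoters of the 6 genes, all found in the RefSeq table for GRCm38.p6 as 250 bases before and 50 bases after the start site, were searched for the X-box core GTTGCC and the forkhead motif TGTTTAC on both strands. The X-box core occurred in the promoters of 2 of the 6, Dnah7c and Dnah10, both lower. It occurred in 12.4% of 16522 protein-coding promoters. Dnah10 held 2 copies, at bases -20 to -15 and 11 to 16 from its start site, which 1.03% of promoters matched or exceeded. The forkhead motif occurred in none of the 6 and in 2.97% of all promoters. An inverted repeat of GTTGC and GCAAC with 0 to 4 bases between them, a search added after the sequences had been seen and overlapping in its letters with the core, was in the promoter of Dnah7c alone among the 6, and in 0.472% of all promoters. The core, at least 2 cores and the repeat were each more frequent in promoters of axonemal and flagellar genes, with the shares given below. A match is a description of letters and not a bound site.

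The sequences below show how the X-box letters sit upstream of Dnah7c and its copy Dnah7a, and upstream of Dnah10. Each runs 5′ to 3′ along its gene from base -250 to base -1, with X-box cores and the inverted repeat in capitals. They are chr1:46425268-46425517 on the plus strand, chr1:53706785-53707034 on the minus strand and chr5:124724835-124725084 on the plus strand, from RefSeq on GRCm38.p6.

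Dnah7c: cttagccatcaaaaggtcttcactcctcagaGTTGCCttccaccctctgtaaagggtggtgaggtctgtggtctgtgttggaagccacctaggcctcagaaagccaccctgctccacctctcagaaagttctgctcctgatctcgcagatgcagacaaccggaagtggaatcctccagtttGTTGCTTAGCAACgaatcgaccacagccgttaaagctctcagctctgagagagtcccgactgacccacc
Dnah7a: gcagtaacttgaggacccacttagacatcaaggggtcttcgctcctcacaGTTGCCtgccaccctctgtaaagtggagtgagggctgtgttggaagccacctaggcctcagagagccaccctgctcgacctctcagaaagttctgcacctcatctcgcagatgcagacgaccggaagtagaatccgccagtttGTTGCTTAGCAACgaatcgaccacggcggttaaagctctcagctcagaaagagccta
Dnah10: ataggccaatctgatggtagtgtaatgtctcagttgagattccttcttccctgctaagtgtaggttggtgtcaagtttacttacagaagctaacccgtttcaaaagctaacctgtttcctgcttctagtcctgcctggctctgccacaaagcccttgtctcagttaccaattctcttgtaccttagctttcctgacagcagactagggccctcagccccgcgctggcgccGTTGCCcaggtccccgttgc

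The repeat read GTTGCTTAGCAAC in Dnah7c, at bases -69 to -57, and in Dnah7a, at bases -57 to -45. The same 13 letters stood at bases -24 to -12 of Dnah7b. All 3 copies thus hold the same repeat near the RefSeq start site, although Dnah7c alone was in a table. In GENCODE, however, Dnah7b starts at -538 from its RefSeq start site, so its repeat lies inside that gene model. The Dnah10 sequence also crosses an exon of 4930404A12Rik, an antisense gene model that was in neither table.

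The upstream sequences of Dnah12 and Tekt5, both higher, are also shown, because neither holds the core or the repeat and because they have few CpG pairs. Presence of the core did not follow direction throughout. The promoter of Cfap61, a lower gene, held neither, and that of Cfap161, a higher gene of the lists, held the core. Dnah12 is given from base -250 to -1, at chr14:26691304-26691553 on the plus strand, and Tekt5 from base -250 to -36, at chr16:10395491-10395705 on the minus strand, where the GENCODE exon begins.

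Dnah12: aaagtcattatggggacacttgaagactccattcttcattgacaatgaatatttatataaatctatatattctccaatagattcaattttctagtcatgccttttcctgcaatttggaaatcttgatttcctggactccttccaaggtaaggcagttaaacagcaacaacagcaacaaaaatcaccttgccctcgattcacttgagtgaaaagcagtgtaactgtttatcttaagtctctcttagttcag
Tekt5: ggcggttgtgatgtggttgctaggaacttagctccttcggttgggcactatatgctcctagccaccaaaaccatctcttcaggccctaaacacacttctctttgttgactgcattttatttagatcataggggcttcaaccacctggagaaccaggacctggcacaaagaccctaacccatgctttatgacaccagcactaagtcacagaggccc

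The Dnah12 promoter held 1 CpG pair in 300 bases, and 4.96% of protein-coding promoters held fewer; Tekt5 held 5. Catsper2 stood at the other end, with 41 CpG pairs and a GC content of 74.7%, more pairs than 95.6% of promoters, in the stretch it shares with the start of Pdia3. Cfap61, whose promoter lies over the start of Crnkl1, held 27. Dnah10 held 12 and Dnah7c 9, against a median of 14 over all promoters. The start site of Dnah12 in RefSeq lies 1720 bases before the GENCODE start of the gene, so its promoter depends on which annotation is used.

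**Figure D3:**
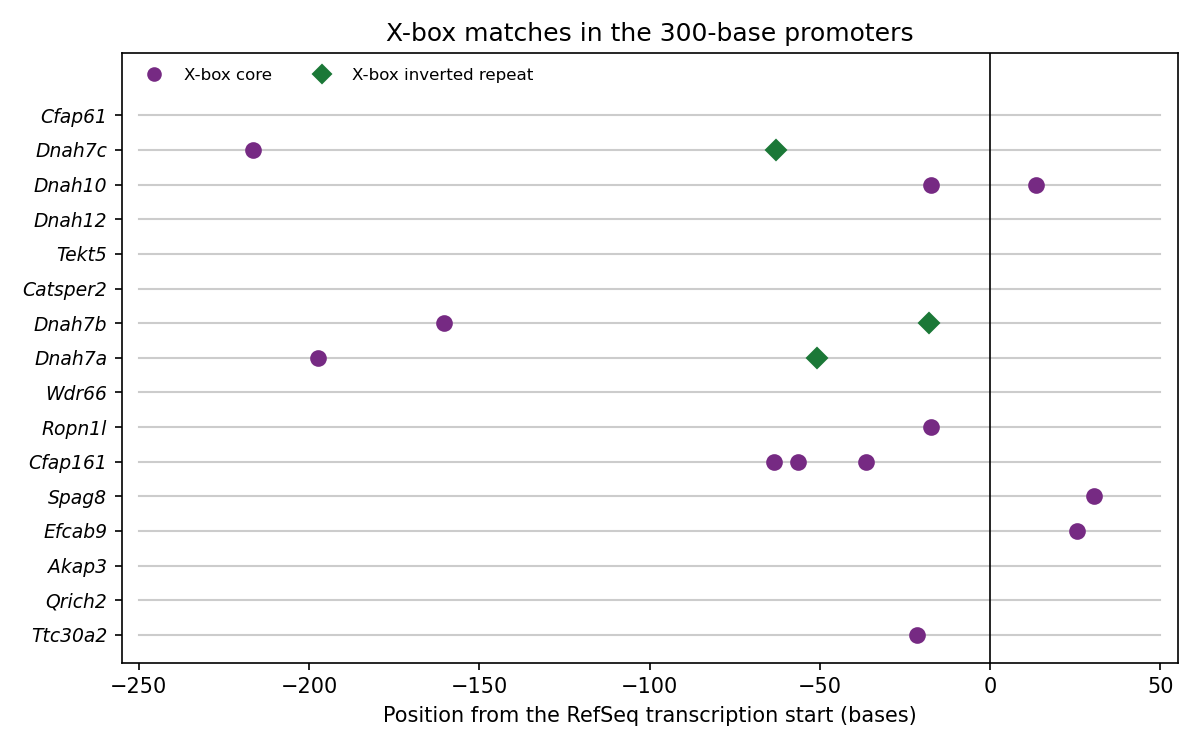
Positions of X-box matches (x axis, bases from the RefSeq start site) in the promoters of the 6 genes, of the Dnah7 copies and of other listed axonemal and flagellar genes (rows), with circles for the core and diamonds for the inverted repeat. Among the 6, matches lie in Dnah7c and Dnah10 and none in Cfap61, Dnah12, Tekt5 or Catsper2; Dnah7b and Dnah7a, in neither table, hold the same pair of matches as Dnah7c.

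Other genes of the same structures were taken from 13 lists of axonemal, flagellar and ciliary genes. Of their 256 distinct entries, 242 matched an annotated symbol under the names tried. The lists are not complete and unmatched entries were not counted, so listed genes of these structures may be missing from the counts. Fam183b, entered under its other name Cfap144, is such a gene and is absent from the totals that follow. The lists were drawn up with earlier results of these data known. Of the 242, 10 were lower and 6 higher, or 6.61% in all, beside 2.5% of all annotated protein-coding symbols. The 6 genes are among these by choice. Without them, 7 of 236 were lower and 3 were higher, or 4.24%. A gene in neither table may still have changed, because only listed genes come with a value and the limit for listing is not stated.

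Radial spokes had 3 of 19 genes lower and none higher. Besides Cfap61 these were Ropn1l, a spoke and fibrous sheath protein gene, at -1.82 and Wdr66, also called Cfap251, at -1.63 in the authors' deposited table. Cfap61 and Cfap251 are partners in the calmodulin- and spoke-associated complex, and the gene of their other known partner, Maats1 or Cfap91, was in neither table. The values of the 2 partners were far apart, at -4.00 and -1.63, the second near the lower bound of the table. None of the spoke head genes on the list, such as Rsph1, Rsph4a and Rsph9, was listed.

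Of 16 axonemal dynein heavy chain genes, the 3 described above were listed and 13 were not, among them all of the outer arm heavy chains on the list, such as Dnah5, Dnah9 and Dnah11. None of 10 intermediate and light chain genes, 6 docking complex genes or 15 dynein arm assembly genes was listed. None of 22 central pair genes and 23 genes of the nexin-dynein regulatory complex and rulers was listed either.

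Tektins and other proteins of the doublet lumen had 1 of 28 matched genes lower and 3 higher. Fam183b, also called Cfap144, is left out of these counts, because the list entry Cfap144 found no annotated symbol. It is a higher gene and is given below with the multiciliated cell markers, so the count of 3 is too low. With Tekt5, the higher genes included Cfap161, at 1.90, and the lower gene was Spag8, at -2.41, in the authors' deposited tables. Both encode proteins found on the inside of doublet microtubules. Tekt1, Tekt2, Tekt3 and Tekt4 were in neither table. The Cfap161 promoter held 3 X-box cores, on the opposite strand, between bases -66 and -34.

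The CatSper list had 1 lower and 1 higher gene of 15. Catsper2 was higher at 1.96, while Efcab9, which encodes a calcium-sensing partner of the channel, was lower at -2.22 in the authors' deposited tables. C2cd6, which encodes another protein of the CatSper complex, is not on the list. It was lower too, at -1.99 in the authors' deposited table, so the even count holds for the list alone. The genes of the other pore subunits, Catsper1, Catsper3 and Catsper4, were in neither table, nor were any of 9 other sperm ion channel and exchanger genes. Fibrous sheath, outer dense fibre and sperm glycolysis genes had 3 of 30 lower and none higher. They were Qrich2, needed for sperm tail formation, at -2.67, Akap3, a protein kinase A anchor of the fibrous sheath, also at -2.67, and Cabyr, a calcium-binding sheath protein gene, at -1.68 in the authors' deposited table.

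Of 31 intraflagellar transport genes, Ttc30a2 was the 1 listed, at 1.92 in the authors' deposited table, and 53.9% of its 50-base windows occurred in other genes, mainly its copy Ttc30a1. None of 18 ciliogenesis transcription factors, Foxj1 and the Rfx genes among them, was listed. Across the 13 lists, the X-box core was in 39.5% of 190 promoters, and in 38.6% of the 176 of these whose genes were in neither table. The core was in 5 of 9 promoters of lower genes and 2 of 5 of higher genes. At least 2 cores were in 9.47% of the 190 promoters and in 9.09% of the 176. The inverted repeat was in 8.42% and 8.52% of them. The GENCODE starts of Efcab9, Wdr66 and Qrich2, all lower, lie at -4507, -1686 and -11894 from their RefSeq start sites. Of these, the Efcab9 promoter holds the core, and the promoters depend on which annotation is used.

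**Figure D4:**
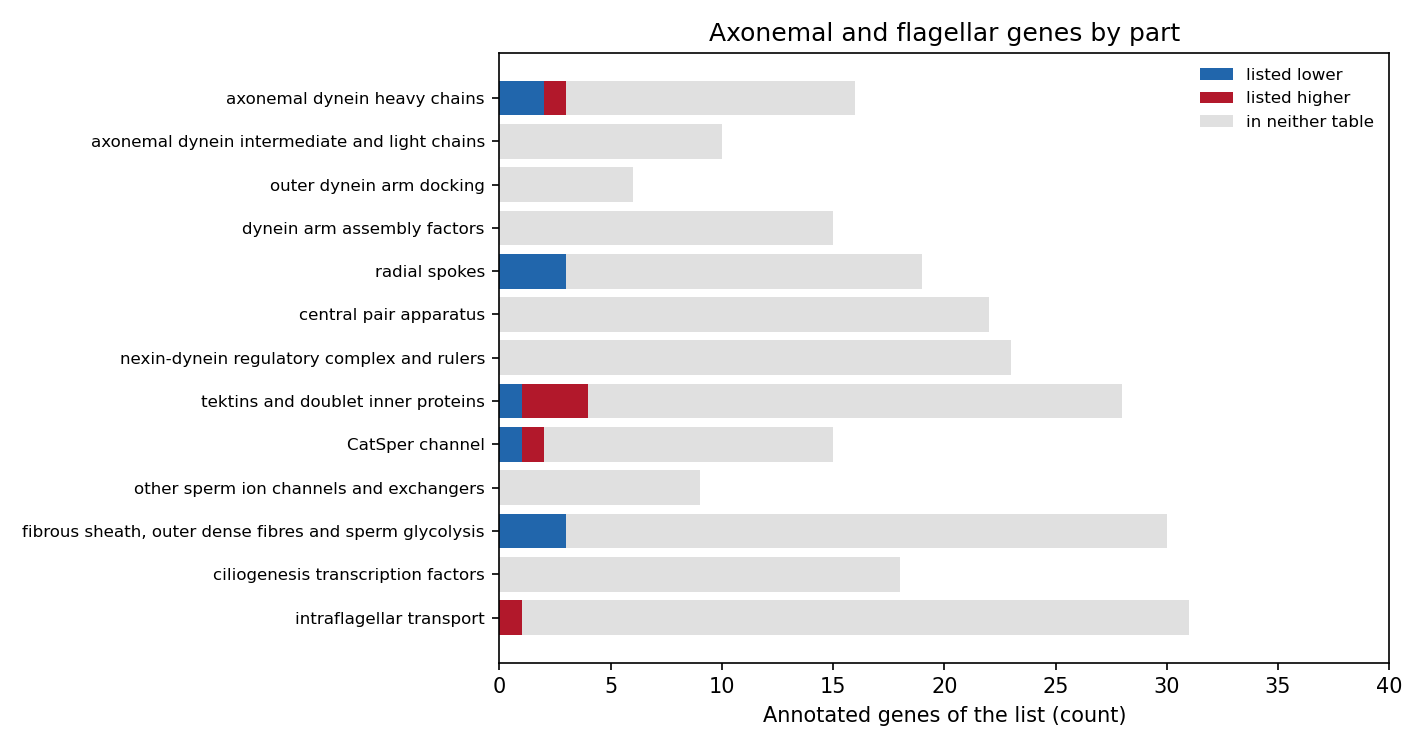
Number of annotated genes (x axis, count) in each of 13 lists (rows), with genes listed lower in blue, listed higher in red and in neither table in grey. Listed genes fall in 6 of the lists, only lower ones in radial spokes and in the fibrous sheath list, and both directions among dynein heavy chains, tektins and doublet inner proteins, and CatSper.

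Few markers of the cell types that carry such structures are on the lists examined, so 1 listed gene weighs heavily in a share. Of 15 multiciliated cell markers, 1 was listed, Fam183b, at 1.98, and of 17 spermatid and spermatocyte markers 1, Spaca1, an acrosome membrane protein gene, at 2.17, both higher in the authors' deposited table. These are 6.67% and 5.88% of the lists, beside 2.5% of all annotated protein-coding symbols. The defining genes Foxj1, Prm1 and Tnp1 were not listed. None of 14 embryonic stem cell markers, such as Pou5f1 and Nanog, was listed, and since the tables hold no levels the labelled cell type could not be checked against them. The level of Mrhl could not be checked for the same reason. The part of other cell types in the values of the 6 genes was not tested.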

How the data were processed

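RNA-seq of 2 sh-Mrhl and 2 scrambled libraries was represented by tables of genes listed as lower or higher. The deposited fold change is treated as a score because, per the file headers, its scale is not stated; the authors set sh-Mrhl against scrambled. Per the submitters' processing notes TopHat2, Cuffdiff and mm10 were used; versions, annotation, test and threshold are not stated there. Depth is unknown and no test was run.

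Symbols were reduced to 1 per table, and 1 symbol found in both tables was left out of the list counts and the background shares but kept in table totals and ranks. Positions and lengths came from GENCODE M21 (GRCm38), which held 6 of 6 members, and promoters from RefSeq. Shared 50- and 100-base windows were searched on both strands of all GENCODE transcripts. The motif search and a simpler form of the window search were tested on simulated sequences. The window search that gave the printed shares and the inverted repeat search were not tested in this way. The members and lists were chosen with earlier results of these data known. Named genes are the 6, other listed genes of the lists, listed neighbours within 500 kb and the adjacent ranks; unlisted genes are named as examples, and 1 listed gene is counted but not reported here. Alternatives raised the minimum absolute value to 2 or 2.5, left out near-identical copies, ciliogenesis genes or the 6 genes, matched first symbols only or changed the set ranked or counted against. Tables were handled in Python 3.11.15 with pandas 2.3.3, and figures drawn with matplotlib 3.10.9.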

Additional observations from a re-analysis of the deposited data

How the results depend on the processing

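Without the 6 genes, an alternative chosen after the data were seen, 7 list genes were lower and 3 higher, against 10 and 6 with them. With absolute values of at least 2, 6 list genes were lower and 2 higher, and 1.09% of annotated protein-coding genes were listed in place of 2.5%. Over annotated symbols of every type the share was 2.04%. With absolute values of at least 2.5, 1 of the 6 genes was higher, namely Dnah12, and 2 were lower. The smaller counts follow from the stricter limits. Leaving out near-identical copies, taking the first symbol of each entry and leaving out transport and ciliogenesis genes moved no count of list genes by over 1.5 times. Ranking among protein-coding symbols moved no rank, taken as a percent of its table, by over 1.5 times, while the plain ranks are smaller because fewer symbols are ranked. No paired analysis was possible because there is 1 value per gene and none per library; leaving out replicates, other pseudocounts and low-value filters were therefore not run. With unknown depth, its limits on these values are unknown too.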
